A study of Oryza sativa with 18 samples.

Results

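The pericentromeric regions of rice described here are the deposited differentially methylated regions whose start lies within 2.5 Mb of a centre position on 10 chromosomes. They number 852 of the 8941 regions in 3 tables, with 592 of 5908 in the dry seed table, 157 of 2131 for the oxygen table and 103 of 902 for the re-aeration table. They are defined by position alone and by no measured level, though this set was proposed with earlier results of these data known. The centre positions were 16.7 Mb on chromosome 1, 13.6 Mb on chromosome 2, 19.4 Mb on chromosome 3, 12.4 Mb on chromosome 5, 15.3 Mb on chromosome 6, 12.1 Mb on chromosome 7, 12.9 Mb on chromosome 8, 2.8 Mb on chromosome 9, 12 Mb on chromosome 11 and 11.9 Mb on chromosome 12. The remaining 6879 regions of the same 10 chromosomes are called the other regions below, and no region on any further sequence was used. No source used here names the genome build, so the centres were not checked against a centromere annotation, and coordinates are those of the files.

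Pericentromeres flank the centromere, where the spindle attaches, and are packed as heterochromatin rich in transposable elements and repeats with few active genes. Plants methylate cytosines there in the CG context and outside it, by maintenance enzymes that copy the pattern after DNA replication and by pathways that use small RNAs or the histone marks of heterochromatin. In Arabidopsis, methylation outside CG builds up in the developing seed and is lost again at germination. Rice germinates without oxygen by lengthening its coleoptile, the sheath around the first leaf.

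Methylation was read by MethylC-seq, a bisulfite sequencing method, in wild-type Oryza sativa cv Amaroo, with 3 libraries in each of 6 groups. Embryos had spent 24 h in a medium bubbled either with nitrogen gas, which removes oxygen, or with air, or were taken at 0 h from the dry seed. Coleoptiles had spent 3 d under nitrogen and then 1 d under air (re-aeration below), 4 d under nitrogen or 4 d under air. Levels at 3 d under nitrogen, just before re-aeration, were not measured. Rises, gains, falls and covered gaps after re-aeration therefore compare groups and trace no measured course. All germinating seeds were kept at 30 °C in the dark, and primary leaf tissue was removed from coleoptiles grown in air. The embryo and coleoptile groups differ in organ as well as in time, so organ and time cannot be told apart between them. The labels do not say whether the 3 libraries in a group stem from separate batches of seeds, so p-values measure the spread between libraries only, which may be technical.

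A level is the methylated share of the reads counted in a region, in percent, and a difference between levels is given in points. The dry seed table was picked by the authors for the dry seed against the 24 h groups, the oxygen table for 4 d nitrogen against 4 d air, and the re-aeration table for re-aeration against 4 d nitrogen. A difference in those comparisons is therefore what put a region in its table, and the counts of calls for them describe that choice. Other comparisons that share a group with them reuse levels that this choice had selected. Total reads over the members were 87039 to 225351 per library in the dry seed table, 29342 to 39148 for the oxygen table and 11249 to 22178 for the re-aeration table. The median member had 116 to 303.5 reads in a library of the dry seed table, 150 to 211 for the oxygen table and 85 to 170 for the re-aeration table. At least 10 reads in every library were found at 548 members of the dry seed table, 155 of the oxygen table and 98 of the re-aeration table. Libraries of the dry seed and re-aeration groups of the dry seed table spread more widely from each other than the rest. There the mean chi-square per member between libraries of a group was 11.1 to 12.5 for the dry seed and 9.43 to 10.6 for re-aeration, against 3.09 to 3.73 for the other 4 groups.

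Listed regions were sparser around the centres than elsewhere on the same chromosomes. The windows make up 15.9% of the span of the 10 chromosomes, counted to the highest listed end, but held 11.6% of the regions of the dry seed table, 8.51% of the oxygen table and 13.3% of the re-aeration table. The density was 11.84 regions per Mb in the windows against 17.1 elsewhere in the dry seed table. It was 3.14 against 6.40 per Mb in the oxygen table and 2.06 against 2.55 per Mb in the re-aeration table. How many stretches could have been called near the centres is not known from the files, so density here counts what was listed and no more.

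**Figure D1:**
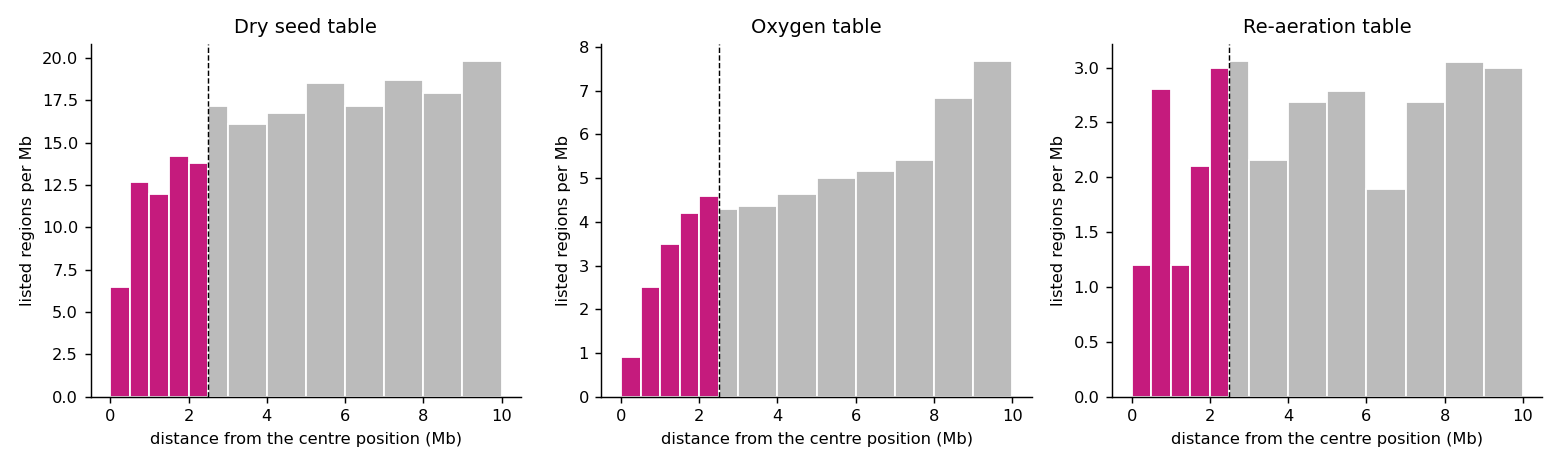
Listed regions per Mb (vertical axis) against distance from the centre position in Mb (horizontal axis) for the 3 tables, with the members in pink, all other regions in grey and the dashed line at 2.5 Mb. The innermost bin is the lowest bar in the dry seed and oxygen panels, at 6.5 and 0.9 regions per Mb.

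The sparseness deepened towards the centre in the dry seed and oxygen tables. Within 0.5 Mb of a centre the dry seed table listed 6.5 regions per Mb, against 13.8 at 2 to 2.5 Mb and 19.8 at 9 to 10 Mb. The oxygen table listed 0.9, 4.6 and 7.68 regions per Mb at those distances. In the re-aeration table the same 3 bins held 1.2, 3.0 and 3.0 regions per Mb, and the bins between did not follow one order. The 10 innermost stretches held only 9 members of the oxygen table and 12 of the re-aeration table, so those bins rest on few regions.

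Chromosomes differed widely in this. In the oxygen table all 10 windows were less dense than the rest of their chromosome. Of those of the dry seed table, 9 of 10 were, the exception being chromosome 9, with 17.4 regions per Mb in the window against 16.2 elsewhere. The window of chromosome 7 was the emptiest in all 3 tables, with 3.0 regions per Mb against 18.0 elsewhere in the dry seed table, 5 members for the oxygen table and 1 for the re-aeration table. Chromosome 12 followed in the dry seed table, with 4.6 against 10.8 per Mb. The re-aeration table had 3 windows that were denser than the rest, those of chromosomes 2, 6 and 9.

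Members were short, like the other regions. The median length was 65 bp against 57 bp in the dry seed table, 38 bp against 37 bp for the oxygen table and 52 bp against 47 bp for the re-aeration table. Regions of at least 100 bp made up 18.4% of members against 16.8% of other regions in the dry seed table, 15.3% against 10.9% in the oxygen table and 13.6% against 8.77% in the re-aeration table. In the dry seed table, which alone gives the number of methylcytosine sites, members held a median of 8 sites against 7, and 15.7 sites per 100 bp in both parts. The median distance between neighbouring members was 41836.5 bp against 34974 bp between other regions in the dry seed table, and 35 of 582 gaps between members were within 1000 bp.

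Embryos lost methylation at the pericentromeric regions of the dry seed table within 24 h of imbibition, in both gases. Members averaged 27.6% ± 0.404 at 24 h in nitrogen and 24.7% ± 0.930 at 24 h in air, against 69.3% ± 1.95 in the dry seed (SD, n = 3 each). Library means were 27.3%, 27.5% and 28.0% in nitrogen, 23.8%, 25.6% and 24.6% in air, and 71.2%, 67.3% and 69.5% in the dry seed. No 24 h library of either gas came near any dry seed library.

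By the quasi-binomial test with Benjamini-Hochberg adjustment over the table, a region was called at an adjusted p under 0.05 and a difference of at least 10 points. In nitrogen, 573 of the 590 members tested fell against the dry seed, where 96.9% of all regions tested in the table did. In air, 581 of 590 fell, where 99.1% of the table did. No member rose in either gas, where 0 and 0.0169% of the table did, and limma called none and no member had an unadjusted p under 0.05 in that direction. These shares stand near those of the whole table. The median difference was -41.0 points in nitrogen and -44.3 points in air for members, against -37.9 and -41.1 points for the other regions. Both gases shared 567 calls among members, with 6 further members called in nitrogen alone and 14 in air alone, where the whole table had 5681 shared, 26 in nitrogen alone and 163 in air alone. In air, the libraries did not overlap those of the dry seed at 560 of the 580 members with at least 10 reads in all 6 libraries (96.6%), where 97.4% of the table did not. The 24 h libraries had fewer reads there, with a median log2 ratio of reads to the dry seed of -1.06 in nitrogen and -0.95 in air for members, against -0.90 and -0.80 for other regions, and the part of this in the result was not tested.

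**Figure D2:**
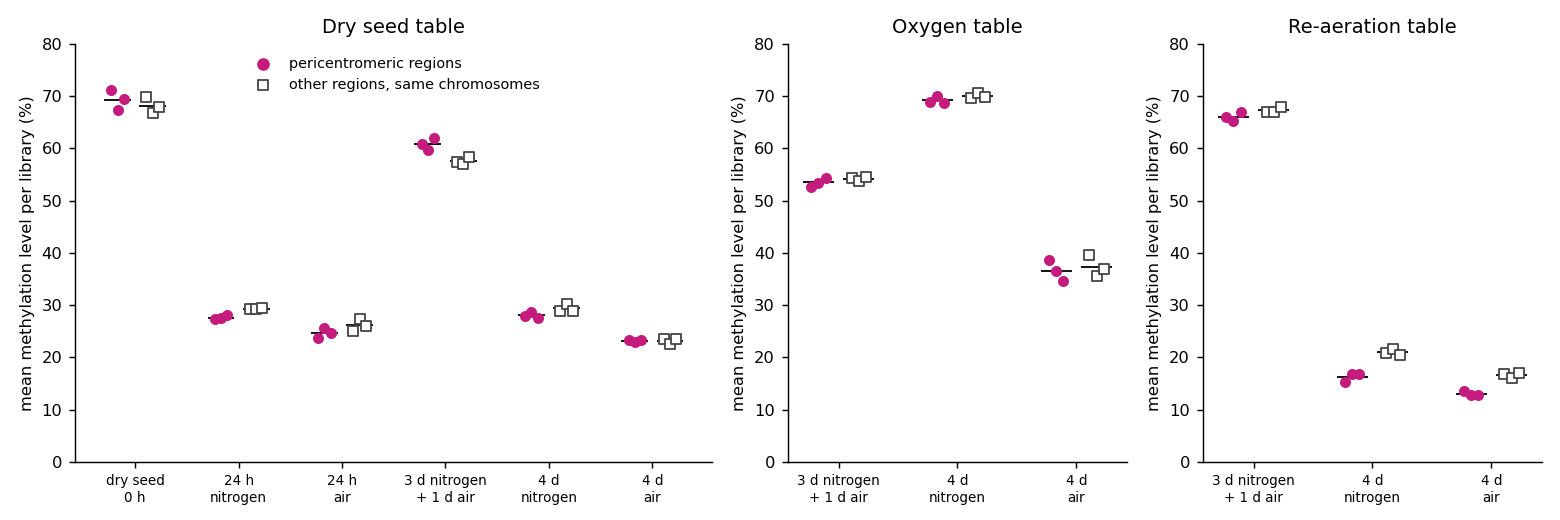
Mean methylation level in percent (vertical axis) of each library, by group, for pericentromeric regions (pink circles) and the other regions of the same chromosomes (open squares) in the 3 tables, with a bar at the mean of 3 libraries. In the dry seed table the members average 27.6% and 24.7% at 24 h against 69.3% in the dry seed, and 60.8% after re-aeration.

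The members with the largest falls lost nearly all of their methylation. On chromosome 7, a 182 bp member at 13121955 to 13122136, 1.02 Mb above the centre position, had 0% in all 3 nitrogen libraries at 24 h and 0.39%, 0% and 0% in air, against 90.7%, 87.0% and 77.7% in the dry seed. Its differences were -85.1 points in nitrogen (adjusted p = 6.69e-08) and -85.0 points in air (adjusted p = 3.48e-08). No 24 h library came near any dry seed library, and at 4 d the level was still at most 0.72% in every air and nitrogen library. After re-aeration it stood at 74.1%, 77.9% and 75.1%.

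A 122 bp member of chromosome 12, at 10708776 to 10708897, showed the same course. It had 0% in all 3 nitrogen libraries and 0%, 0% and 0.77% in air at 24 h, against 89.2%, 86.8% and 78.4% in the dry seed. Re-aerated coleoptiles had 74.1%, 82.7% and 80.5%, against 0% in every 4 d nitrogen library, a difference of 79.1 points (adjusted p = 1.95e-07). Again the high and low groups did not overlap.

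Among members with at least 10 reads in every library, the largest fall in both gases was that of a 41 bp member of chromosome 2, at 14784785 to 14784825. It had 15.9%, 3.4% and 3.4% in nitrogen and 1.2%, 2.7% and 11.7% in air, against 85.6%, 99.8% and 97.6% in the dry seed. The differences were -86.7 points in nitrogen (adjusted p = 0.000322) and -89.1 points in air (adjusted p = 1.93e-05). The deposited methylated counts carry a factor of the library just below 1, so 99.8% means that every read was methylated.

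At some members the 24 h libraries of both gases did not overlap, though no member was called. Of the 571 members with at least 10 reads in all 6 libraries of 24 h, 71 had groups that did not overlap (12.4%). Of these, 62 were higher in nitrogen and 9 lower. In the whole table the share without overlap was larger, at 15.7%. With 3 libraries in each group, such a gap can also arise without a difference between the gases. At a 69 bp member of chromosome 5, at 14729185 to 14729253, the 24 h levels were 0%, 3.8% and 1.3% in nitrogen against 11.2%, 18.0% and 14.7% in air. The libraries did not overlap, but the difference of -12.9 points had an adjusted p of 0.773. An 88 bp member of chromosome 2, at 12222795 to 12222882, had 21.0%, 56.6% and 14.3% in nitrogen against 2.3%, 5.7% and 16.3% in air, where 1 nitrogen library stood far above the other 2 and the groups overlapped (adjusted p = 0.925). At 1 further member, 27 bp of chromosome 3 at 18898224 to 18898250, all 6 libraries of 24 h lay at or below 5.65%.

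**Figure D3:**
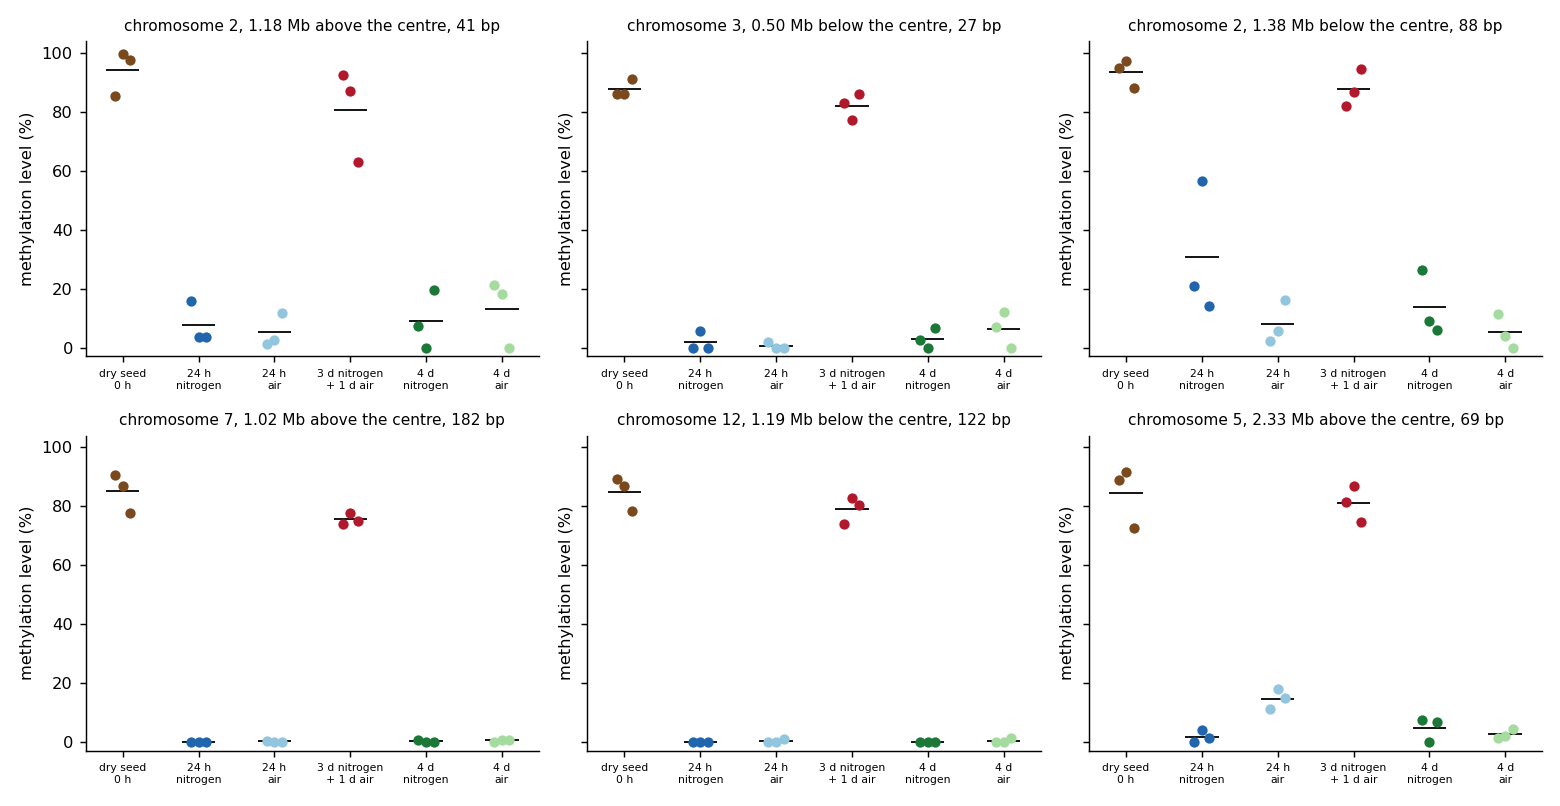
Methylation level in percent (vertical axis) of each library, by group, at the 6 members of the dry seed table with the largest falls at 24 h in either gas, with a bar at the mean. Dry seed and re-aerated libraries are high and all 4 d libraries are low in each panel, and the members of chromosomes 7 and 12 lie within 1.2 points of 0% in all 24 h and 4 d libraries.

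Nitrogen averaged slightly higher than air at 24 h. It was above air at 410 members (69.6%) and below at 176, where 70.4% of other regions were above. The test shares its spread with the more variable dry seed and re-aeration groups, so it may miss differences here. None of 589 members was called higher and none lower, where 0.017% and 0 of the table were, with 26 higher and 1 lower at an unadjusted p under 0.05 and none by limma. The median difference of nitrogen minus air was 2.08 points in members against 2.73 points in other regions. At 4 d in the same table the median difference was 3.14 points in members against 5.14 points in other regions. There 6 of 582 members were called higher in nitrogen, where 1.92% of the table were, and none lower, where 0.0171% were. When only the compared groups supplied the spread, 0 members were called, with limma 15, and with any 1 library of the compared groups left out 0 to 3.

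The 6 members higher in 4 d nitrogen lay on chromosomes 3, 5, 6 and 9. At 21 bp of chromosome 9, at 1212718 to 1212738, the levels were 51.2%, 63.8% and 62.0% in 4 d nitrogen against 21.7%, 20.7% and 16.4% in 4 d air, a difference of 39.4 points (adjusted p = 0.036). At 109 bp of chromosome 6, at 13690323 to 13690431, they were 63.0%, 59.4% and 58.2% in nitrogen against 29.8%, 35.2% and 23.5% in air, 30.6 points apart (adjusted p = 0.00949). At 100 bp of chromosome 5, at 14665689 to 14665788, they were 66.0%, 61.8% and 63.1% in nitrogen against 52.2%, 38.7% and 39.9% in air, 20.01 points apart (adjusted p = 0.0377). At all 3 the nitrogen libraries lay wholly above the air libraries, while at 24 h the same members had differences of 11.9, 6.57 and 10.4 points that were not called.

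After re-aeration the members of the dry seed table were high again. They averaged 60.8% ± 1.17 after re-aeration, against 28.0% ± 0.671 in 4 d nitrogen and 23.2% ± 0.247 in 4 d air (SD, n = 3 each). Library means were 60.9%, 59.6% and 61.9% after re-aeration, against 27.9%, 28.8% and 27.4% in 4 d nitrogen. Re-aeration rose above 4 d nitrogen at 439 of 585 members (75.04%), where 69.9% of the table did, with a median difference of 32.0 points in members against 26.8 in other regions. None fell, where 0.341% of the table did. At an unadjusted p under 0.05, 1 member was lower, and limma called 2. The re-aerated libraries had more reads there as well, with a median log2 ratio of reads of 0.53 in members against 0.37 in other regions, and their part in the result was not tested.

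Levels after re-aeration were nearer to the dry seed in members than in other regions. Members stood 3.19 ± 0.552 points above other regions in re-aerated libraries, with means of 60.8% against 57.6%, and 1.13 ± 0.544 points above them in dry seed libraries, with 69.3% against 68.2%. Members minus other regions came to -1.73 ± 0.228 points in 24 h nitrogen, -1.45 ± 0.195 in 24 h air, -1.31 ± 0.260 in 4 d nitrogen and 0.05 ± 0.233 in 4 d air (SD over 3 libraries). The direction was shared by all 3 libraries in each group but 4 d air. Levels computed from summed reads, which weight long and deeply covered regions, gave 0.53 points for re-aeration, -2.34 points for 4 d nitrogen, -0.999 points for 4 d air and -0.33 points for the dry seed.

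Re-aerated levels lay within 10 points of the dry seed at 350 of 592 members (59.1%), against 49.7% of other regions, and above the dry seed at 105 members (17.7%), against 14.1%. The median of re-aeration minus dry seed was -7.46 points in members and -9.76 points in other regions. Among the 519 members whose dry seed level exceeded the 4 d nitrogen level by at least 20 points, re-aeration covered a median of 83.4% of that gap, against 76.3% in other regions. At least 75% of the gap was covered at 331 of these members (63.8%), against 51.7%, and under 25% at 28 members (5.39%), against 9.24%. No test was made of members against other regions, since the members were chosen with results known.

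**Figure D4:**
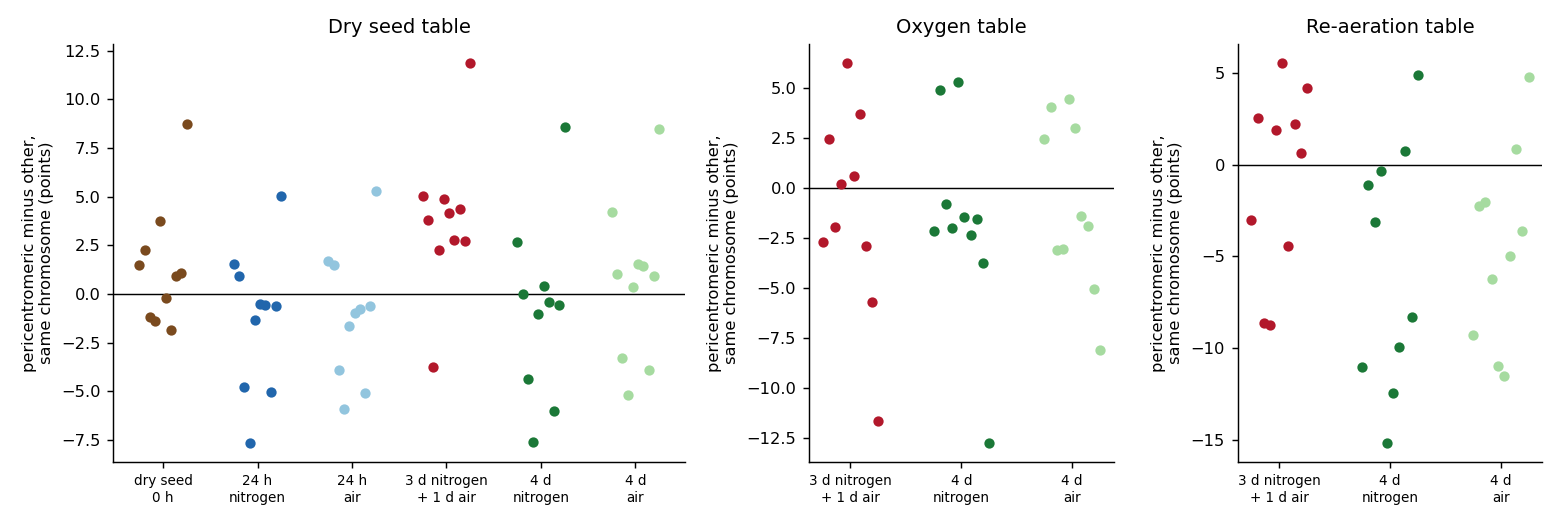
Mean level of pericentromeric regions minus that of other regions on the same chromosome, in points (vertical axis), with 1 dot per chromosome in each group of the 3 tables and the line at 0. After re-aeration 9 of the 10 chromosomes lie above 0 in the dry seed table, and 8 of 10 lie below 0 in both 4 d groups of the re-aeration table.

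The excess after re-aeration was present on 9 of 10 chromosomes. On chromosome 12 the members averaged 69.6% against 57.7% elsewhere, and on chromosome 1 they averaged 61.7% against 56.7%. Chromosome 3 was the exception, with 54.8% against 58.5%. The dry seed excess was less even, with 6 chromosomes above and 4 below. Chromosome 12 had the highest window in the dry seed too, at 76.1% against 67.4%, from 23 members.

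In the dry seed table, re-aerated and dry seed levels were highest nearest to the centre and followed no steady course further out. The 65 members within 0.5 Mb averaged 65.7% after re-aeration and 72.9% in the dry seed, against 60.4% and 69.0% at 2 to 2.5 Mb and 59.1% and 68.4% just outside, at 2.5 to 3 Mb. At 3 to 4 Mb the 306 other regions averaged 61.6% and 70.5%, above the 60.8% and 69.3% of all members. From 4 to 10 Mb the bins averaged 57.0% to 58.8% after re-aeration. The median fall at 24 h in air was -48.5 points within 0.5 Mb and -42.4 points at 2 to 2.5 Mb. Bins between those held 59.1% to 61.5% after re-aeration. Just inside the limit, a 26 bp member of chromosome 2 at 11101028 to 11101053 averaged 11.1% at 24 h in nitrogen and 88.5% after re-aeration, against 88.0% in the dry seed. Just outside, a 129 bp region of chromosome 8 at 15401901 to 15402029 averaged 3.602% and 70.9%, against 73.3%.

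**Figure D5:**
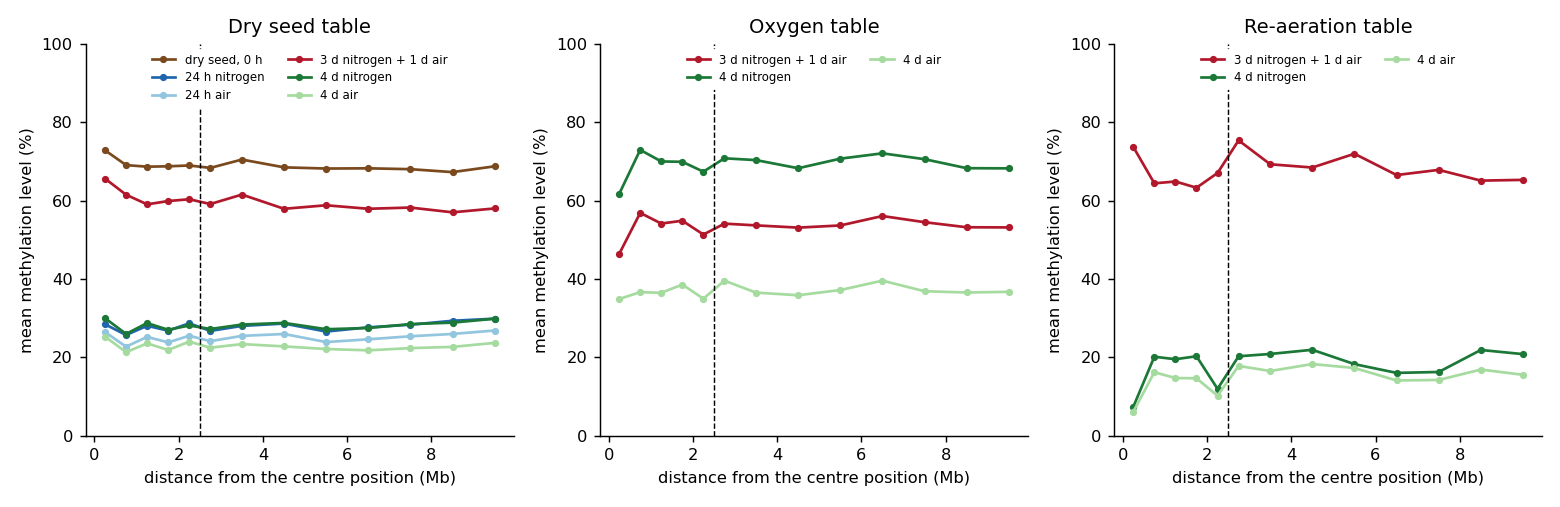
Mean methylation level in percent (vertical axis) by distance from the centre position in Mb (horizontal axis) for each group of the 3 tables, with members left of the dashed line at 2.5 Mb. Re-aeration and dry seed lines are highest within 0.5 Mb in the dry seed table, at 65.7% and 72.9%, and the 4 d lines of the re-aeration table are lowest there, at 7.39% and 6.14%.

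The 3 members nearest to a centre with at least 10 reads in every library followed the same course. A 284 bp member of chromosome 8, at 12880513 to 12880796 and 0.02 Mb from the centre position, had 4.8%, 4.3% and 5.1% at 24 h in nitrogen and 3.8%, 3.9% and 1.3% in air, against 54.9%, 49.8% and 53.2% in the dry seed. After re-aeration it had 53.4%, 45.4% and 49.3%, against 3.8%, 8.3% and 5.3% in 4 d nitrogen. On chromosome 11, 93 bp at 12020205 to 12020297 had 0%, 0% and 0.74% at 24 h in nitrogen, against 60.8%, 45.5% and 61.6% in the dry seed, and 47.3%, 45.4% and 36.3% after re-aeration. In all of these the re-aerated libraries lay far above every 4 d library, and on chromosome 12 the 100 bp member at 11921144 to 11921243 reached 90.7%, 81.7% and 65.7%, with a mean of 79.3% against 78.3% in the dry seed. The longest member, 355 bp of chromosome 8 at 13696803 to 13697157, averaged 15.4% at 24 h in nitrogen, 14.4% at 24 h in air and 46.1% after re-aeration, against 50.8% in the dry seed.

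At 24 h, 5 of the 592 members had no call in either gas, and they are named here after their values were seen. Regions without a call were rare in the whole table too. Of its 5908 regions, 5681 had calls shared by both gases, 26 had a call for nitrogen alone and 163 for air alone. The clearest of the 5 members was 78 bp of chromosome 1 at 16913267 to 16913344. It averaged 38.3% ± 0.321 in nitrogen and 36.8% ± 0.308 in air, against 38.7% ± 0.693 in the dry seed (SD, n = 3 each), and the means of the 3 coleoptile groups lay between 36.7% and 38.2%. In air the difference of -1.97 points had an adjusted p of 0.0164 but was short of 10 points. It was also the member with the most reads of the dry seed table, 2870 to 3293 per library, where the median member had 116 to 303.5. On chromosome 11, 66 bp at 10747885 to 10747950 averaged 86.3% in nitrogen and 83.6% in air, against 91.3% in the dry seed, differences under 10 points. On chromosome 2, 72 bp at 14863834 to 14863905 averaged 69.0% in nitrogen and 66.7% in air, against 75.7% in the dry seed, with an SD of 19.0 between dry seed libraries. On chromosome 6, 79 bp at 16752982 to 16753060 averaged 54.0% in nitrogen and 48.04% in air, against 63.4% with an SD of 20.4 in the dry seed. The last, 7 bp of chromosome 6 at 13789598, had too few reads at 24 h to be tested.

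In the oxygen table, 4 d without oxygen went with higher methylation at nearly every member. Members averaged 69.2% ± 0.705 in 4 d nitrogen and 53.5% ± 0.823 after re-aeration, against 36.6% ± 2.01 in 4 d air (SD, n = 3 each). Library means were 68.9%, 70.0% and 68.7% in nitrogen, against 38.7%, 36.4% and 34.7% in air. Nitrogen was higher at 153 of 157 members, where 98.6% of the table was, and lower at none, where 0.0939% was. In the lower direction 1 member had an unadjusted p under 0.05, and limma called none. The median difference was 31.4 points in members and 31.5 points in other regions.

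The largest differences in the oxygen table were at very short members with few reads. The top one, 7 bp of chromosome 3 at 20180142 to 20180148, had 91.5%, 55.2% and 80.3% in nitrogen against 11.1%, 0% and 8.8% in air, from 12 to 47 reads a library (69.0 points, adjusted p = 0.00386). At 14 bp of chromosome 2, at 15641127 to 15641140, the levels were 60.5%, 89.5% and 96.3% in nitrogen against 11.8%, 30.7% and 10.8% in air, from 26 to 66 reads a library (difference 64.3 points, adjusted p = 0.00599). At 9 bp of chromosome 5, at 14853865 to 14853873, they were 91.8%, 73.4% and 96.7% in nitrogen against 43.5%, 17.7% and 11.4% in air (63.1 points, adjusted p = 0.0037). At 10 bp of chromosome 9, at 1327088 to 1327097, they were 80.5%, 77.8% and 99.8% in nitrogen against 27.2%, 29.8% and 20.9% in air (60.1 points, adjusted p = 0.000964). At none of these did the groups overlap. The longest member, 149 bp of chromosome 2 at 11894179 to 11894327, had 82.0%, 66.0% and 74.4% in nitrogen against 51.8%, 58.7% and 49.6% in air, a smaller difference of 20.7 points (adjusted p = 0.011).

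The member nearest to a centre went the other way. It spans 89 bp of chromosome 12, at 11917231 to 11917319, 0.02 Mb from the centre position. It had 5.2%, 4.2% and 2.4% in 4 d nitrogen against 13.9%, 14.1% and 12.9% in 4 d air, from 310 to 419 reads a library. The groups did not overlap and the adjusted p was 0.000915, but the difference of -9.69 points fell short of the 10 points needed for a call. The other 3 members that were not called all averaged higher in nitrogen. Named after their values were seen, they were 66 bp of chromosome 1 at 17300388, with 61.9% in nitrogen against 52.8% in air, 36 bp of chromosome 6 at 12833102, with 52.5% against 33.8%, and 20 bp of chromosome 9 at 904258, with 52.5% against 25.9%.

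After re-aeration the means of nearly all these members lay between both 4 d groups, as in other regions. Regions were picked and called for the gap between those 4 d groups, so a further group can fall between them by that choice. The part of this in the result was not tested, and the counts below reuse the same levels. Of the 153 members higher in nitrogen, 151 (98.7%) had a re-aerated mean between the nitrogen and the air mean, against 97.1% of other regions. The median member had covered 49.8% of the gap towards air, against 49.0% in other regions. Re-aeration fell below 4 d nitrogen at 56 of 157 members, where 39.2% of the table did, and rose above 4 d air at 65, where 40.9% did. No member was called higher than 4 d nitrogen, where 0 of the table was, and none lower than 4 d air, where 0.0939% was. In those directions 1 and 0 members had an unadjusted p under 0.05, and limma called none. The counts of 56 and 65 lay between 12 and 21 and between 21 and 43 when any 1 library of the compared groups was left out. Of the 153 members, 24 were called both below 4 d nitrogen and above 4 d air, and 56 were called in neither comparison. In the whole table these counts were 331 and 726 of 2101.

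Single members sat anywhere in that range. At 17 bp of chromosome 12, at 11044186 to 11044202, re-aerated levels were 20.6%, 31.4% and 28.7%, against 69.5%, 61.3% and 64.1% in 4 d nitrogen (-38.0 points, adjusted p = 0.0145) and 26.8%, 13.2% and 22.1% in 4 d air, so the member overlapped the air group. At 28 bp of chromosome 6, at 14359613 to 14359640, they were 67.1%, 73.3% and 75.6%, against 20.3%, 33.3% and 16.8% in air (48.5 points, adjusted p = 0.0226) and 50.6%, 86.6% and 79.0% in nitrogen, so it overlapped the nitrogen group. Among the 153, only 2 members had a re-aerated mean above that of nitrogen. They were 17 bp of chromosome 5 at 11433844 to 11433860, with 84.0% after re-aeration against 76.9% in nitrogen, and, named after its values were seen, 3 bp of chromosome 8 at 12179581 to 12179583, with 76.8% from 2 re-aerated libraries against 75.6%.

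Members of the oxygen table stood less than 1 point from other regions in the mean of every group. Members minus other regions came to -0.72 ± 0.821 points after re-aeration, -0.81 ± 0.320 points in 4 d nitrogen and -0.72 ± 1.59 points in 4 d air (SD, n = 3 each). Signs turned with summed reads, to 0.0488 points in 4 d nitrogen and 0.58 points in 4 d air, and with windows of 1.5 Mb, to 0.0460 points in 4 d nitrogen. The window of chromosome 12 was the lowest in all 3 groups, with means of 41.2% after re-aeration, 56.7% in nitrogen and 27.5% in air over 7 members, against 52.8%, 69.4% and 35.6% elsewhere on that chromosome. In the dry seed table the same window was the highest of the 10 in the dry seed and after re-aeration.

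Most members of the re-aeration table were higher in coleoptiles returned to air than in those kept under nitrogen, where levels were mostly very low. Members averaged 66.1% ± 0.872 after re-aeration, against 16.3% ± 0.887 in 4 d nitrogen and 13.02% ± 0.448 in 4 d air (SD, n = 3 each). Library means were 66.0%, 65.3% and 67.0% after re-aeration, against 15.3%, 16.8% and 16.8% in 4 d nitrogen. Re-aeration was higher than 4 d nitrogen at 95 of 103 members, where 90.8% of the table was, and lower at 6, where 6.77% was. It was higher than 4 d air at 91 of 101 members, where 90.3% of the table was, and lower at 1, where 0.224% was. The comparison with 4 d air reuses the re-aerated levels by which the table was picked. The median log2 ratio of reads, re-aeration over 4 d nitrogen, was 0.54 in members and 0.51 in other regions, and its part was not tested.

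On average, the members of the re-aeration table were lower at 4 d than the other regions. The difference of members minus other regions was -4.65 ± 1.03 points in 4 d nitrogen, with means of 16.3% against 20.9%, and -3.59 ± 0.596 points in 4 d air, with 13.02% against 16.6% (SD over 3 libraries). After re-aeration it was -1.18 ± 0.415 points, with 66.1% against 67.3%. The median member had 7.86% in 4 d nitrogen against 15.5% for the median other region, and 5.54% in 4 d air against 11.97%. Under 5% were 41 members (39.8%) in 4 d nitrogen, against 22.6% of other regions, and 49 members (47.6%) in 4 d air, against 31.8%. The members were below the other regions on 8 of 10 chromosomes in both 4 d groups, those of chromosomes 9 and 12 being above. The deficit lay in 2 of the 5 bins by distance. In 4 d nitrogen the 12 members within 0.5 Mb averaged 7.39% and the 30 at 2 to 2.5 Mb averaged 11.99%, while the 3 bins between, with 28, 12 and 21 members, averaged 20.2%, 19.5% and 20.3%, near the 20.9% of the other regions. Outside the windows, bins out to 10 Mb averaged 16.1% to 21.9% in 4 d nitrogen and 14.1% to 18.3% in 4 d air. Those at 6 to 7 and 7 to 8 Mb, at 16.1% and 16.3% in 4 d nitrogen, lay near the 16.3% of all members. With windows of 1.5 Mb the differences were -3.47 points in 4 d nitrogen and -2.38 points in 4 d air.

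Both 4 d groups differed little from each other in this table, though the test shares its spread with the more variable re-aeration group. No member was called higher or lower in 4 d nitrogen than in 4 d air, where 0.224% and 0 of the table were, with 7 higher and 0 lower at an unadjusted p under 0.05 and none by limma. The median difference was 1.22 points in members and 2.40 points in other regions.

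Among the 95 members that gained, levels were 68.0% ± 0.695 after re-aeration, against 12.9% ± 1.10 in 4 d nitrogen and 10.7% ± 0.572 in 4 d air (SD, n = 3 each). At 76 of them (80%) both 4 d groups were under 20%, against 62.8% of the other regions that gained, and at 40 (42.1%) both were under 5%, against 22.2%. Among members with at least 10 reads in every library, the largest gain was at 30 bp of chromosome 9, at 4629318 to 4629347, with 74.8%, 97.2% and 90.4% after re-aeration, against 4.8%, 6.5% and 9.5% in 4 d nitrogen (80.6 points, adjusted p = 0.000297) and 4.5%, 11.9% and 0% in 4 d air. At 100 bp of chromosome 1, at 17178439 to 17178538, 0.48 Mb from the centre position, the levels were 79.4%, 80.1% and 84.1% after re-aeration, against 0%, 0.78% and 4.1% in 4 d nitrogen (79.6 points, adjusted p = 2.73e-05). At 77 bp of chromosome 6, at 13243580 to 13243656, they were 89.6%, 78.2% and 76.5% after re-aeration, against 3.3%, 2.1% and 0% in 4 d nitrogen (79.6 points, adjusted p = 8.78e-05). Named after their values were seen, 2 members with under 10 reads in at least 1 library gained more, 12 bp of chromosome 1 at 16993953 by 93.2 points and 15 bp of chromosome 2 at 11442586 by 87.1 points. At each of the 3 above the lowest re-aerated library stood far above the highest 4 d library.

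The 6 members that fell were 3 when re-aeration library 2 was left out. As a set they averaged 33.2% ± 6.13 after re-aeration, against 67.0% ± 3.98 in 4 d nitrogen and 46.04% ± 3.23 in 4 d air (SD, n = 3 each). At 69 bp of chromosome 5, at 10792184 to 10792252, the levels were 58.6%, 52.4% and 45.4% after re-aeration, against 70.3%, 75.4% and 72.3% in 4 d nitrogen (-20.6 points, adjusted p = 0.00228) and 57.0%, 55.5% and 48.6% in 4 d air. At 26 bp of chromosome 3, at 17592092 to 17592117, they were 17.2%, 8.0% and 9.98% after re-aeration, against 23.03%, 55.3% and 47.2% in 4 d nitrogen (-30.1 points, adjusted p = 0.0129) and 20.1%, 9.4% and 5.5% in 4 d air. At both the re-aerated libraries lay below those of nitrogen and overlapped those of air.

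On chromosome 9, 29 bp at 3736467 to 3736495 had 49.0%, 45.5% and 77.4% after re-aeration, against 78.5%, 86.3% and 84.6% in 4 d nitrogen (-25.9 points, adjusted p = 0.0117). The only member called below 4 d air as well was 7 bp of chromosome 2 at 14244813 to 14244819, read only 12 to 39 times a library, with 22.9% ± 16.5 after re-aeration, against 86.2% ± 17.4 in 4 d nitrogen and 73.2% ± 7.00 in 4 d air (SD, n = 3 each). None of the 6 overlapped a region of the dry seed table, while 79 of the 95 that gained did (83.2%), against 0 of 46 other regions that fell and 88.7% of those that gained. The 2 members that were not called, named after their values were seen, both averaged higher after re-aeration. They were 16 bp of chromosome 1 at 14279529, with 72.1% against 15.8% in 4 d nitrogen, and 34 bp of chromosome 6 at 14173133, with 74.7% against 36.2%.

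Many members of the re-aeration table were thus stretches that had lost methylation after the dry seed. Of the 103, 80 overlapped a member of the dry seed table by at least 1 bp (77.7%), against 81.6% of the other regions, and these were 13.5% of the members of the dry seed table, against 12.1%. The overlapping 80 members of the dry seed table averaged 18.0% at 24 h in nitrogen and 16.6% in air, against 66.0% in the dry seed. After re-aeration they averaged 64.6%, against 17.3% in 4 d nitrogen. The 512 without such an overlap averaged 29.1% and 25.9% at 24 h, against 69.8% in the dry seed, and 60.2% after re-aeration, against 29.8% in 4 d nitrogen. The overlapping members were thus lower at 24 h and 4 d, and their re-aerated level was nearer to the dry seed level. The re-aeration table was picked for re-aeration against 4 d nitrogen. Low 4 d nitrogen levels and high re-aerated levels are therefore part of that choice.

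The longest shared stretches gave like levels in both tables, which hold the same libraries. On chromosome 3, the 329 bp member at 20965431 to 20965759 averaged 1.81% at 24 h in nitrogen and 2.81% at 24 h in air, against 63.6% in the dry seed. It had 61.5% after re-aeration, against 4.30% in 4 d nitrogen. Its partner in the re-aeration table, at 20965473 to 20965748 and the longest member there with 276 bp, had 64.5%, 55.5% and 72.4% after re-aeration, against 6.4%, 4.3% and 4.1% in 4 d nitrogen. A neighbour on chromosome 3, 196 bp at 20954151 to 20954346, averaged 1.42% at 24 h in nitrogen, 2.12% at 24 h in air and 67.4% after re-aeration, against 63.8% in the dry seed. On chromosome 2, 232 bp at 15605262 to 15605493 averaged 3.64% at 24 h in nitrogen, 2.38% at 24 h in air and 55.3% after re-aeration, against 61.9% in the dry seed.

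The oxygen table shared almost no regions with the rest, among members and other regions alike. Of its 157 members, 2 overlapped a member of the dry seed table (1.27%), against 15 of its 1687 other regions (0.889%). These were 0.338% of the dry seed members, against 0.332% of other regions there. None of the 157 overlapped the re-aeration table, against 9 of the 1687 (0.533%). Named after their values were seen, the 2 lie at 19071860 to 19071910 of chromosome 1 and at 11925648 to 11925740 of chromosome 11. In the oxygen table the member of chromosome 1 had 81.1% ± 7.65 in 4 d nitrogen against 53.7% ± 1.78 in 4 d air, and that of chromosome 11 had 74.0% ± 9.65 against 50.97% ± 2.56 (SD, n = 3 each). The overlapping members of the dry seed table, 117 bp at 19071773 and 285 bp at 11925605, kept much of their methylation at 24 h. They averaged 76.5% and 61.6% in nitrogen and 65.5% and 55.3% in air, against 85.8% and 81.4% in the dry seed.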

How the data were processed

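The 18 libraries were assigned to 6 groups of 3 by their titles. Columns were matched to libraries through the group and number they are named for, and 0 columns of single libraries stayed unused. Per the file headers, each of the 3 tables deposited by the authors lists regions with a chromosome, start and end and, per library, a methylated count, a total count and a percent. The deposited total counts are whole numbers. The methylated values deposited by the authors were treated as estimated counts, since division by 1 factor per library, 0.9977 to 0.9983, made 100% of them whole to within 0.01. They were rounded to whole counts for the test. The percent deposited by the authors is the methylated over the total count and is written as 0 where the total is 0, which was treated as missing. The column names carry CG and the deposited names of the region sets carry CNN, so the sequence context that was counted is uncertain. No source used here names an aligner, a region caller, its filters or a genome build. Reads of a region overlap and share molecules, so counts are not independent and no counting interval is given.

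Members were the regions within 2.5 Mb of the centre positions. The members, lists and tests were chosen with earlier results of these data known. For each region of a whole table, a quasi-binomial logistic model was fitted to methylated and total counts, with all groups of the table sharing the spread, a dispersion of at least 1, libraries under 10 reads left out and at least 2 libraries per group. This was the planned test where read counts are given. P-values were adjusted by Benjamini-Hochberg over the table, and 11 comparisons were made. A region was called at an adjusted p under 0.05 and at least 10 points between the group means. Mean levels per library were set beside those of other regions as descriptions. The model was tested on simulated data with intermediate levels and the same spread in every group. That test does not cover members with levels near the extremes or groups of unlike spread.

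Named members had at least 10 reads in every library of their table. They were the 5 called with the largest difference in each direction of the comparisons a table was made for, the 3 nearest a centre, the longest, up to 3 called in each direction of other comparisons, up to 5 overlapping another table, and those at the limit of 2.5 Mb whatever their reads. Not all were described. Alternatives were a coverage minimum of 5 or 20 reads, the spread of the compared groups alone, the replicate number as a block, limma on percent levels, summed reads, windows of 1.5 Mb, an overlap of 50% of the shorter region, and leaving out each library. Python 3.11.15, numpy 2.4.6, scipy 1.17.1, bedtools 2.31.1 and limma 3.58.1 were used. Sequences and gene annotation of the files' build were not used here.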

Additional observations from a re-analysis of the deposited data

Results flagged for a closer look

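In the dry seed table the mean level of pericentromeric regions minus that of other regions had opposite signs in different groups, each shared by all 3 libraries of a group except in 4 d air. It was 3.19 points after re-aeration and 1.13 points in the dry seed. It was -1.73 points in 24 h nitrogen, -1.45 points in 24 h air and -1.31 points in 4 d nitrogen. In 4 d air it was 0.05 points, with libraries of both signs. With summed reads the dry seed value was -0.33 points. The difference between the groups in this value was not tested.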

How the results depend on the processing

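Leaving out 1 library changed neither the sign nor, beyond the spread between libraries or 1.5 times, the size of 82 values, moved 18 further values and turned the sign of 2. The remaining alternatives left 73 values alike, moved 20 and turned the sign of 7. The cause was not tested.

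Among counts of calls, the 6 members higher in 4 d nitrogen than in 4 d air in the dry seed table were 0 with the spread of the compared groups, 15 with limma and 0 to 3 without any 1 library. Those of the oxygen table below 4 d nitrogen after re-aeration, 56 in the full fit, were 34 with the spread of the compared groups, 22 with the replicate number as a block and 12 to 21 without any 1 library. The 65 above 4 d air were 30, 31 and 21 to 43 under the same settings. The block does not pair the libraries, since deviations of libraries of like number correlated at -0.0733 to 0.0599 over 63 pairs, with 0 above 0.1. In the re-aeration table the 6 members below 4 d nitrogen were 3 without re-aeration library 2, and the 1 below 4 d air was 2 without re-aeration library 3. A count of 0 became 1 or 2 for re-aerated members below 4 d nitrogen among those of the dry seed table, and 1 for members below 4 d air in 4 d nitrogen of the oxygen table. All other counts of members called stayed within 1.5 times under the settings tried.

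For levels, given as members minus other regions in points, summed reads turned the dry seed to -0.33, 4 d air to -0.999, and 4 d nitrogen of the oxygen table to 0.0488 and its 4 d air to 0.58. They moved 24 h nitrogen to -2.55, 24 h air to -2.01, re-aeration to 0.53 and 4 d nitrogen to -2.34 in the dry seed table, and re-aeration to -1.61 in the re-aeration table. Without the member with the most reads, a setting chosen after seeing the data, summed reads gave 0.17 in the dry seed, -2.75 in 24 h nitrogen, -2.24 in 24 h air, 1.10 after re-aeration, -2.55 in 4 d nitrogen and -1.37 in 4 d air, where the sign turned. A minimum of 20 reads gave -0.15 in 4 d air, turned, and -1.59 in 4 d nitrogen of the dry seed table. Windows of 1.5 Mb turned 4 d nitrogen of the oxygen table to 0.0460 and gave, in the re-aeration table, -0.48 after re-aeration, -3.47 in 4 d nitrogen and -2.38 in 4 d air. Leaving out any 1 library put 4 d air at -0.0773 to 0.144 points in the dry seed table and at -1.53 to 0.0530 points in the oxygen table. Of the 80 members of the re-aeration table that overlapped one of the dry seed table, 75 did so by at least 50% of the shorter region. Members under 10 reads in a library limit what can be tested there.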
